A study of Saccharomyces cerevisiae with 8 samples.

Results

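The proteins of the small subunit of the cytosolic ribosome of budding yeast (Saccharomyces cerevisiae) were followed through ribosome footprints and mRNA. The members were chosen by gene identifier, as the genes RPS0A to RPS31 with ASC1, and all 57 were found among 6692 genes in the table. They comprise 24 pairs of duplicated genes, labelled A and B, and 9 single-copy genes, and they encode 33 proteins. All 57 passed the filter on low counts, under which 5336 genes were tested. The cultures, kept in YEPD at 30 °C and taken at an OD600 of 0.6, all received cycloheximide (100 ug/ml for 2 min), a drug that stalls elongating ribosomes, so no untreated group exists. The 4 groups were footprints from monosomes (single ribosomes), footprints from polysomes (several ribosomes on an mRNA), global footprints (all ribosomes of a digested lysate) and mRNA fragments, with 2 libraries each. Footprints were 26 to 32 nt long and mRNA fragments 20 to 45 nt. Strain and genotype are not given in the sources used here, nor is the number of ribosomes per mRNA in the polysome fractions. The labels do not say that the libraries of a group came from separate cultures, so p-values measure only how far these libraries differ, and that difference may be technical. All libraries came from bulk lysates, in which the number of cells expressing a gene and its level per cell cannot be told apart.

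The small subunit binds the mRNA, carries it through a channel and reads its codons against tRNAs, while the large subunit joins the amino acids. Its proteins are folded onto a single ribosomal RNA in the nucleolus and finished in the cytoplasm, and in the ribosome each is present in a single copy. In growing yeast their genes are among the most actively transcribed, many carry an intron, and most were retained in duplicate after an ancient genome duplication. A ribosome stays single on an mRNA when it is alone there, which can happen on a short coding region, at slow initiation, or early in the first round of translation.

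The 57 genes took 13.6% ± 0.367 of all counts in monosome footprints, 12.4% ± 0.0530 in polysome footprints, 11.05% ± 0.338 in global footprints and 6.05% ± 0.276 in mRNA (SD, n = 2). Library totals were 4723489 and 6443263 counts for monosomes, 8686385 and 7494965 for polysomes, 749057 and 552992 for global footprints, and 933252 and 672928 for mRNA. Levels below are counts per 1e6 (CPM) after scaling with TMM factors (which set the bulk of genes equal), and differences are log2 ratios on that scale. The thinnest values lay in mRNA, where RPS30A had 37 and 22 counts, or 57.5 CPM (95% exact Poisson interval 40.5 to 79.2) and 42.6 CPM (26.7 to 64.5). Intervals cover counting error only, since the reads carry no known molecular identifier. In each footprint library the member with the fewest counts was RPS6A or RPS6B, with 143 to 1884 counts.

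Monosome and polysome footprints divided the small subunit genes. The genes of Rps28 and Rps29, the shortest among members without an intron, were higher in monosomes (log2 ratios 0.80 to 1.25), while ASC1 and the genes of Rps2, Rps3, Rps4, Rps6, Rps20 and Rps31 were lower (-1.42 to -0.97). Fragments that may match both copies leave the values for Rps4 and Rps6 uncertain. Of the 57 genes, 29 were lower in monosomes (50.9%, against 33.5% of all genes tested), 16 were higher (28.1%, against 36.6%) and 12 did not pass the threshold (edgeR quasi-likelihood F test, Benjamini-Hochberg adjusted p under 0.05). The median log2 ratio was -0.27, beside 0.05 over all genes. When library totals alone set the scale, 19 were lower and 30 higher, beside 867 and 3030 of all 5336 genes tested. The medians became 0.19 and 0.50, so the direction of genes near the middle depends on the scale.

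**Figure D1:**
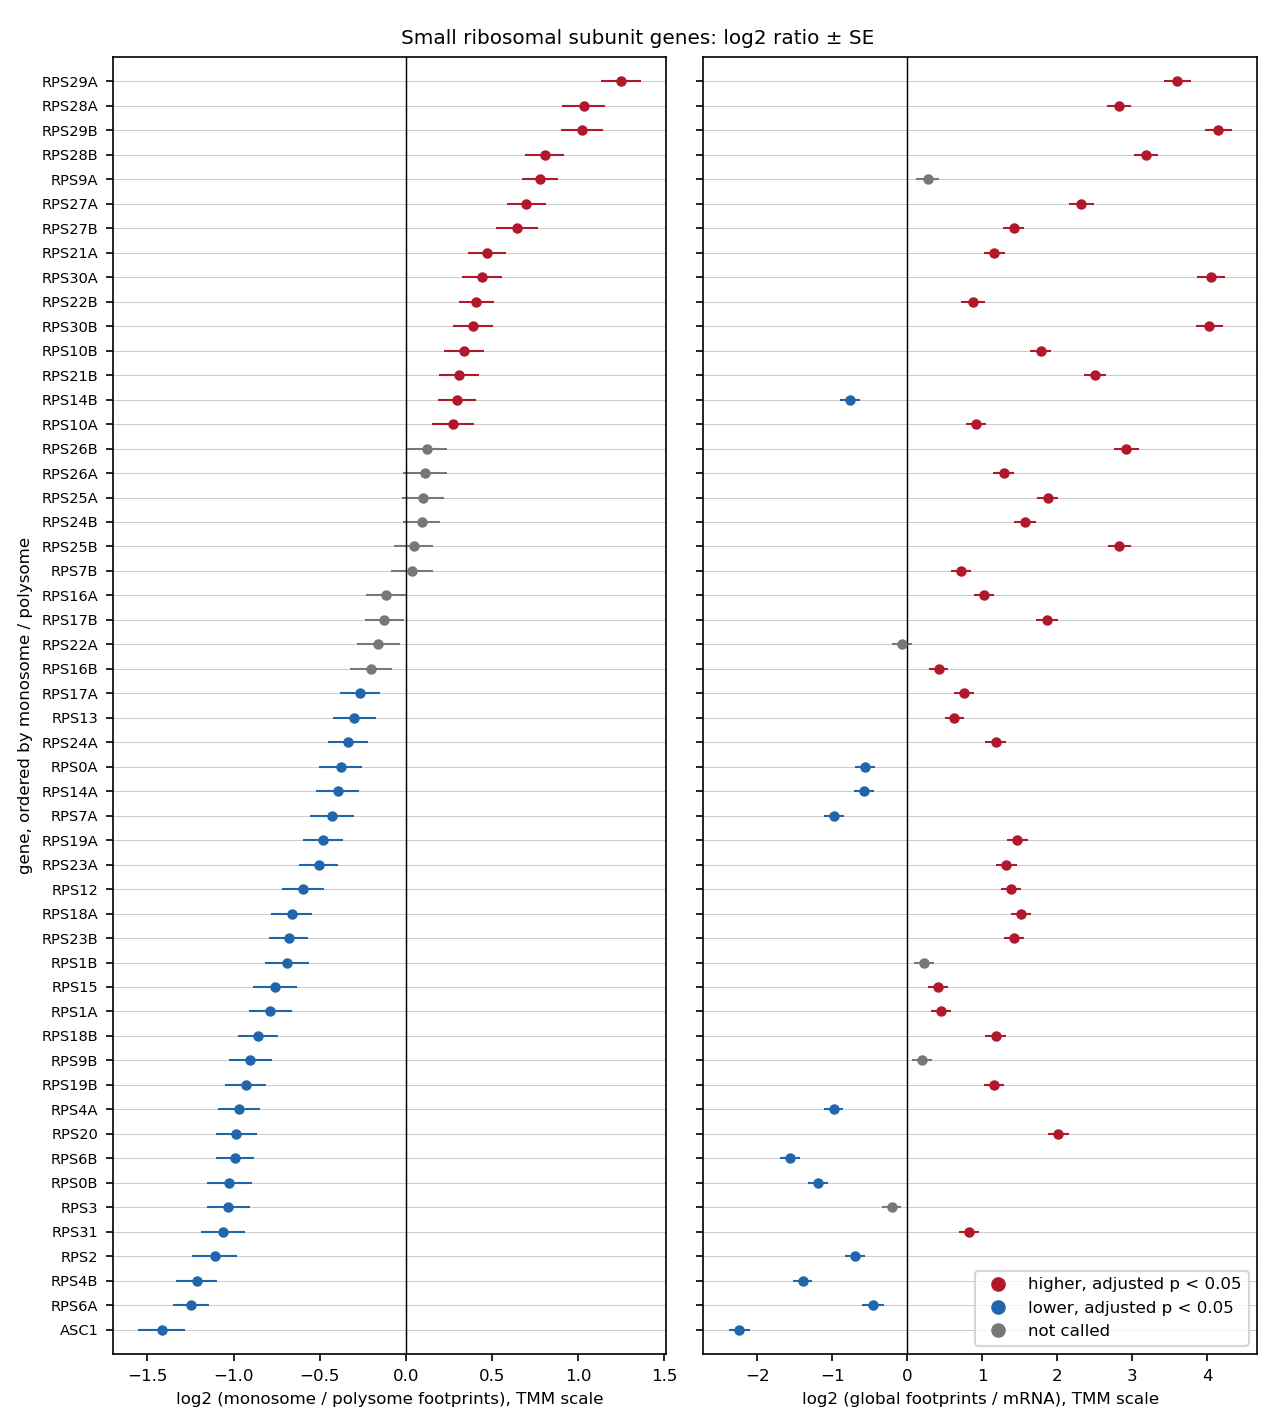
Log2 ratio of monosome over polysome footprints (left) and of global footprints over mRNA (right) for 52 small subunit genes, on the TMM scale, with bars of ± 1 SE; red and blue mark genes called higher and lower, grey those not called. On the left the genes run from ASC1 at -1.42 to RPS29A at 1.25, and on the right the RPS29 and RPS30 genes lie at 3.60 to 4.15, beyond the other genes shown.

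At the monosome end stood Rps29, a zinc-binding protein of the head, and Rps28, which lines the exit of the mRNA channel. RPS29A (YLR388W, chromosome XII, 898651 to 898821) was at 2315 and 2450 CPM in the monosome libraries and at 1067 and 937 CPM in the polysome libraries (log2 ratio 1.25, SE 0.12, edgeR adjusted p = 6.27e-17). RPS29B (YDL061C, chromosome IV, 340628 to 340798) stood at 3944 and 4290 CPM in monosomes, against 2035 and 2025 CPM for polysomes (log2 ratio 1.02, SE 0.12, edgeR adjusted p = 2.69e-12). RPS28A (YOR167C, chromosome XV, 648804 to 649007) was at 3872 and 3691 CPM against 1867 and 1834 CPM (1.03, SE 0.12, edgeR adjusted p = 2.13e-12). These positions are gene spans on the R64 assembly. RPS28B, at 1282 and 1267 CPM against 756 and 704 CPM, had a log2 ratio of 0.80 (SE 0.11). In these 4 genes, chosen for the size of their change, both monosome libraries lay above both polysome libraries, which is no further support. Library totals raised the median over all genes from 0.05 to 0.50, so that scale could not turn genes with a positive ratio. RPS9A (0.78), RPS27A (0.70), RPS27B (0.65), RPS21A (0.47), RPS30A (0.44) and RPS22B (0.41) followed; Rps27 is a zinc-binding protein of the body and Rps30 a small basic protein beside the channel entry that is made as a fusion to a ubiquitin-like domain in mammals but not in yeast.

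At the polysome end stood ASC1 (YMR116C, chromosome XIII, 499456 to 500688), the yeast relative of RACK1, a propeller-shaped scaffold on the head of the subunit. It was at 2411 and 2158 CPM in monosomes and at 6500 and 5707 CPM in polysomes (log2 ratio -1.42, SE 0.14, edgeR adjusted p = 2.20e-16). RPS6A (YPL090C, chromosome XVI, 377291 to 378395), which encodes the phosphorylated protein at the foot of the subunit, was at 124 and 102 CPM against 277 and 257 CPM (-1.25, SE 0.10, edgeR adjusted p = 2.33e-19). RPS4B (YHR203C, chromosome VIII, 504476 to 505530) was at 532 and 471 CPM against 1179 and 1145 CPM (-1.21, SE 0.12). RPS2 (YGL123W, chromosome VII, 277617 to 278381), whose product sits at the channel entry and affects decoding accuracy, was at 2722 and 2367 CPM against 5573 and 5415 CPM (-1.11, SE 0.13, edgeR adjusted p = 8.38e-13). In all 4 genes, chosen for the size of their change, the polysome libraries were higher without overlap, which is no further support. Library totals, which raise these ratios, did not turn them.

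The single-copy genes lay on 1 side. All 9 were called lower in monosomes than in polysomes, from ASC1 to RPS13 at -0.30 (SE 0.13, edgeR adjusted p = 0.0274). Among all 57 members 50.9% were lower, and among all genes tested 33.5%. RPS31, which encodes ubiquitin joined to a protein of the beak, was at 2948 and 2626 CPM in monosomes and at 5816 CPM in each polysome library (-1.06, SE 0.13). RPS3, the channel entry protein that also meets initiation factors, was at 2336 and 2079 CPM against 4675 and 4337 CPM (-1.03, SE 0.13). RPS20, of the head and a target of ubiquitylation on stalled ribosomes, was at 1624 and 1433 CPM against 2981 and 3063 CPM (-0.98, SE 0.12). RPS15, near the decoding site, was at 4413 and 3915 CPM against 7029 and 7067 CPM (-0.76, SE 0.13). RPS12, of the beak, was at 2271 and 2033 CPM against 3333 and 3169 CPM (-0.60, SE 0.12). RPS13, at 2913 and 3049 CPM against 3844 and 3498 CPM, lost its call without any of the 4 libraries in turn and turned to 0.15 with library totals. With library totals RPS12 also lost its call (-0.14, edgeR adjusted p = 0.118). By comparison, the A copies of the 24 pairs had a median of -0.21 and the B copies one of 0.04; the difference between single-copy and duplicated genes was not tested.

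Grouped by place in the subunit, the genes of the mRNA channel and decoding site (18 genes) were higher in monosomes in 6 and lower in 8, those of the head and beak (16 genes) higher in 4 and lower in 9, and those of the body, platform and foot (23 genes) higher in 6 and lower in 12. Against 36.6% higher and 33.5% lower over all genes, these were 33.3% and 44.4% for the channel, near the background, 25% and 56.2% for the head, and 26.1% and 52.2% for the body. Their medians were -0.16, -0.37 and -0.27. Long and short members occur in each group.

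Coding length ran alongside these ratios. For 20 members whose coding region is known to have no intron, the gene span in the reference table is the coding length, and it runs from 171 nt (RPS29A and RPS29B) to 768 nt (RPS1A and RPS1B). The 4 genes of up to 300 nt were all called higher in monosomes, with a median of 1.03; over all genes of that span the median was 1.12 and 128 of 161 were higher. Of 9 genes over 300 and up to 600 nt, 4 were lower and 5 did not pass (median -0.16). All genes of that class had a median of 0.33, with 21% lower. RPS20 (366 nt) and RPS26A (360 nt), nearly equal in length, were at -0.98 and 0.11. Of 7 genes over 600 nt, 6 were lower (median -0.79), RPS2 and RPS3 among them. All genes of that class had a median of -0.04, with 36.9% lower. Across the 20 genes, Pearson's r between log2 length and the log2 ratio was -0.84 and Spearman's rho -0.77; without RPS28 and RPS29 they were -0.54 and -0.56 over 16 genes. These genes share the same 4 libraries, and the coefficients are a description. The 37 members with an intron had a median of -0.27, beside -0.21 for the 20 without.

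**Figure D2:**
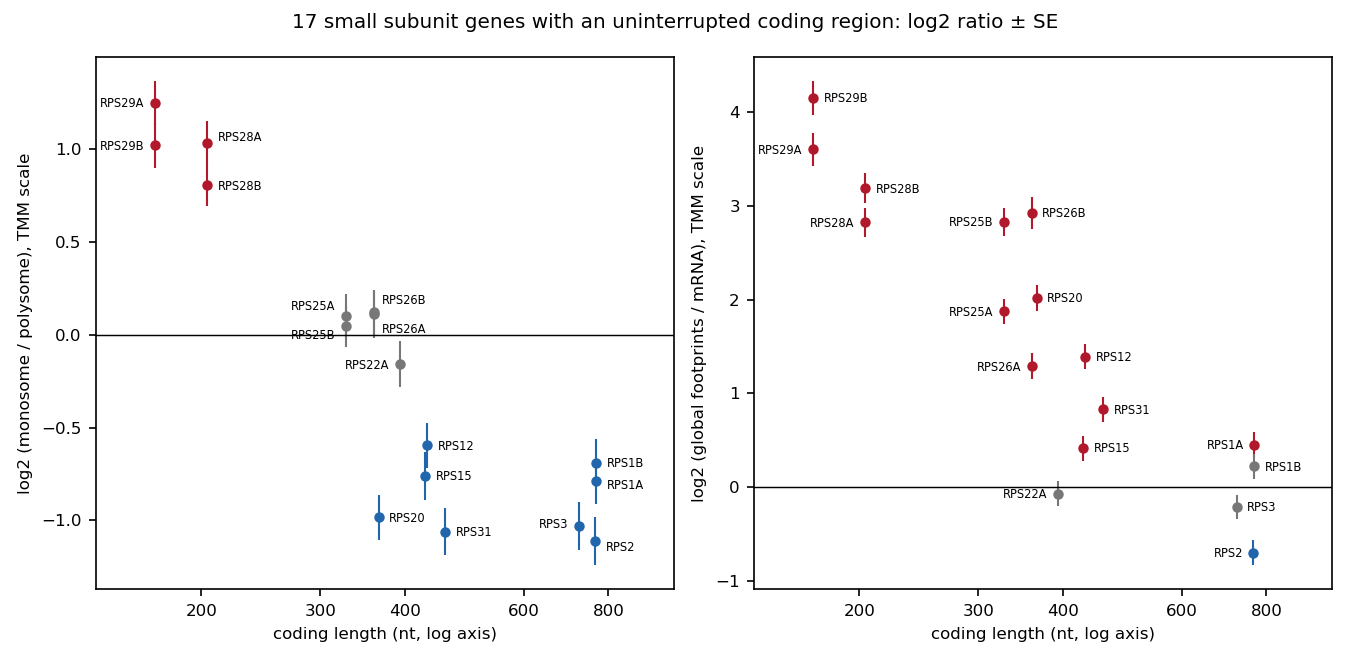
Log2 ratio of monosome over polysome footprints (left) and of global footprints over mRNA (right) against coding length on a log axis for 17 small subunit genes without an intron in the coding region, with bars of ± 1 SE and red, blue and grey for higher, lower and not called. The genes of 171 and 204 nt sit highest on the left, those of 171 nt highest on the right, while RPS20 at 366 nt lies low on the left and high on the right.

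Comparing global footprints with mRNA asks how many footprints a transcript carries relative to its mRNA fragments, which is read as translational efficiency. Small subunit genes were mostly high in this ratio, with those of Rps29 and Rps30 highest. Of the 57, 40 were higher in global footprints than in mRNA (70.2%, against 34.8% of all genes), 11 were lower (19.3%, against 31.0%) and 6 did not pass. The median log2 ratio was 1.03, beside 0.15 over all genes. With library totals the medians were 1.79 and 0.91. On that scale 48 were higher and 6 lower, beside 2906 and 1028 of all 5336 genes tested.

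RPS29B was at 1493 and 1316 CPM in global footprints and at 85.4 and 71.6 CPM in mRNA (log2 ratio 4.15, SE 0.18, edgeR adjusted p = 1.06e-38). RPS30A (YLR287C-A, chromosome XII, 712537 to 713158) was at 881 and 804 CPM against 57.5 and 42.6 CPM (4.05, SE 0.19, edgeR adjusted p = 2.76e-36), and RPS30B at 1064 and 904 CPM against 60.6 and 59.99 CPM (4.03, SE 0.18). RPS29A was at 952 and 891 CPM against 73.0 and 79.3 CPM (3.60, SE 0.18, edgeR adjusted p = 1.80e-34). The mRNA counts of these 4 genes were between 22 and 55 per library. The copies of Rps30 encode identical proteins, so fragments may match both genes and their levels are uncertain. RPS28B (3.19), RPS26B (2.93), RPS25B (2.83), RPS28A (2.83) and RPS21B (2.50) came next; Rps26 lies at the channel exit and Rps25 on the head, where it serves some viral leaders. Among members without an intron, the 4 of up to 300 nt had a median of 3.40, beside 2.47 over 161 genes of that span, so a high ratio was shared by short genes in general. Across the 20 members without an intron, r with log2 length was -0.88 and rho -0.84. Without RPS28 and RPS29 they were -0.72 and -0.70 over 16 genes. The mRNA fragments and footprints were made and size-selected differently, and the part of that difference in these ratios was not tested.

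ASC1 was the lowest, at 4001 and 3882 CPM in global footprints and 20466 and 16888 CPM in mRNA (log2 ratio -2.24, SE 0.14, edgeR adjusted p = 3.58e-27). It made up 1.41% and 1.30% of the mRNA counts, against 0.481% and 0.491% of the global footprints. The box C/D snoRNA gene SNR24 (chromosome XIII, 499984 to 500072) lies inside the span of ASC1, and SNR44 lies inside RPS22B; whether snoRNA fragments entered these counts was not tested. RPS6B was at 229 and 205 CPM against 758 and 523 CPM (-1.57, SE 0.14), RPS4B at 966 and 878 CPM against 2657 and 2200 CPM (-1.40, SE 0.13) and RPS0B at 2671 and 2469 CPM against 6514 and 5186 CPM (-1.19, SE 0.13). In these genes, chosen for the size of their change, both mRNA libraries exceeded both global libraries, which is no further support. Fragments that may match both copies leave the levels of RPS6B and RPS4B uncertain.

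Among single-copy genes, RPS20 was at 2174 and 1956 CPM in global footprints and at 516 and 505 CPM in mRNA (2.02, SE 0.14). RPS12 was at 2475 and 2714 CPM against 1028 and 948 CPM (1.39, SE 0.13), and RPS31 at 3773 and 3574 CPM against 2188 and 1951 CPM (0.83, SE 0.13). RPS20, RPS12 and RPS31 were thus called lower in monosomes than in polysomes and higher over mRNA, whereas the RPS29 genes were higher in both. Duplicated genes such as RPS18B and RPS23B had the same 2 calls as RPS20. The ratio of RPS31 over mRNA lay below the median of 1.03 for the 57 genes. RPS13 (0.63) and RPS15 (0.41) were also higher. RPS15 lost its call without global replicate 1 and also with RLE size factors, an alternative scaling. RPS3 had a log2 ratio of -0.21 (edgeR adjusted p = 0.146), while RPS2, at 3079 and 2910 CPM against 5195 and 4534 CPM, was lower (-0.70, SE 0.13; 0.061 with library totals). By place, 15 of 16 genes of the head and beak were higher, ASC1 being the exception, as were 11 of 18 of the channel (61.1%) and 14 of 23 of the body (60.9%), beside 34.8% of all genes. Across all 57 genes the ratio of monosomes to polysomes and that of global footprints to mRNA had r = 0.69 and rho = 0.64. Without RPS28 and RPS29 these were 0.59 and 0.56 over 53 genes. The ratios share no library, and the coefficients are a description.

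Because each protein is present in a single copy per subunit, the level per length of its summed gene copies can be set side by side. It is given for 11 proteins whose genes have no intron in the coding region. Global footprints ran from 3914 CPM per kb for Rps2 to 13603 CPM per kb for Rps29, a ratio of 3.48 with a median of 7775 CPM per kb. Polysome footprints ran from 6232 CPM per kb (Rps3) to 19402 CPM per kb (Rps26), a ratio of 3.11. Monosome footprints had a wider range, from 3053 CPM per kb for Rps3 to 38009 CPM per kb for Rps29, a ratio of 12.4. Levels in mRNA ran from 904 CPM per kb for Rps29 to 6359 CPM per kb for Rps2, a ratio of 7.03. The SD of log2 levels over the 11 proteins was 1.24 in monosomes, 0.56 in polysomes, 0.57 in global footprints and 0.95 in mRNA. Rps29 was thus lowest in mRNA and highest in global footprints per kb: its libraries were at 926 and 883 CPM per kb in mRNA and at 14296 and 12910 CPM per kb in global footprints. Rps2, by contrast, was highest in mRNA, at 6791 and 5927 CPM per kb, and lowest in global footprints, at 4025 and 3804 CPM per kb.

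**Figure D3:**
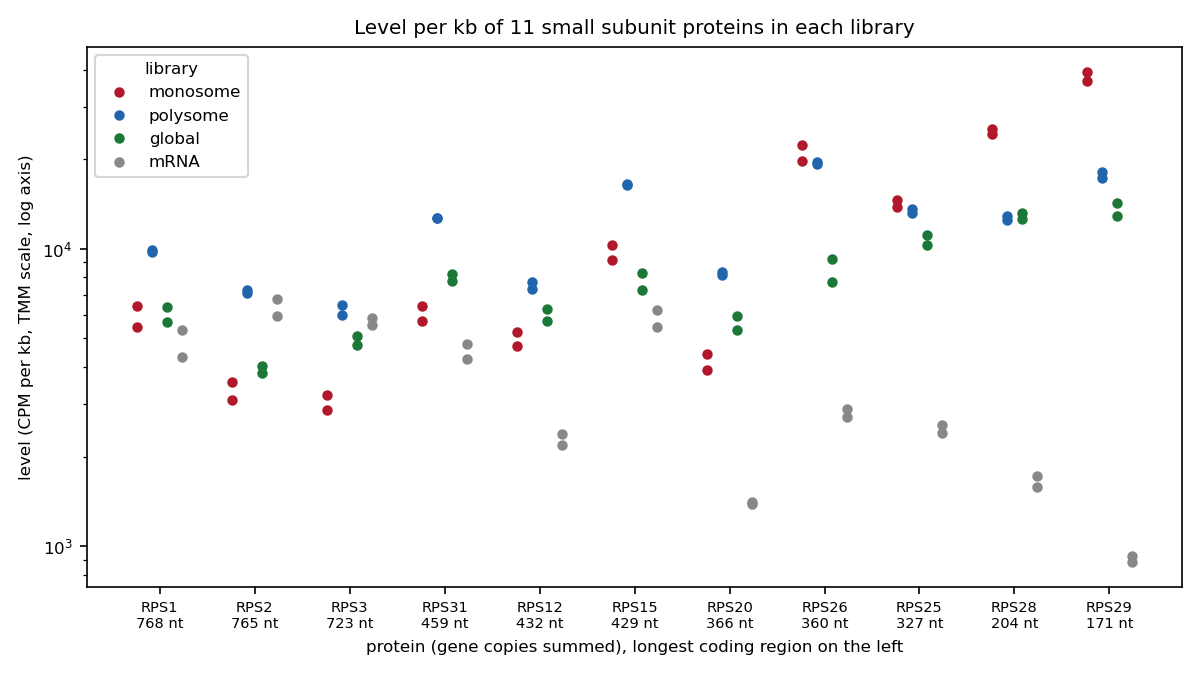
Level in CPM per kb of coding length (log axis, TMM scale) of 11 small subunit proteins with gene copies summed, ordered by coding length; each point is a library and each colour a group. From Rps1 at 768 nt to Rps29 at 171 nt, monosome levels end at 36602 and 39417 CPM per kb for Rps29 while its mRNA lies below 930 CPM per kb.

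Duplicated genes were compared by the ratio of counts of copy A to copy B within a library, which needs no scaling. The copies of a pair encode proteins of the same or nearly the same length, and in the 6 pairs without introns the spans were equal. The proteins of several pairs, among them Rps4, Rps6, Rps16, Rps18, Rps23, Rps24 and Rps30, are known to be identical, so fragments may match both genes. How such reads were counted is not given in the sources used here, and levels of these pairs are uncertain. With 2 libraries against 2, an exact two-sided permutation test cannot go below p = 0.333, so differences in balance between groups are described by library. Over the 24 pairs the median imbalance in either direction was 1.02 on the log2 scale in mRNA, 0.79 in polysomes, 0.72 in monosomes and 0.58 in global footprints. The copies differed by more than 2-fold in 13 pairs in mRNA, 11 in polysomes, 8 in monosomes and 6 in global footprints.

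The pair RPS22 was the most unequal in mRNA, with log2 ratios of A over B of 3.66 and 3.40, against 2.63 and 2.57 in global footprints. RPS26 was at 2.96 and 2.97 in mRNA and at 1.32 and 1.35 in global footprints. RPS7 was at 2.54 and 2.57 in mRNA, 0.83 and 0.89 in global footprints and 0.13 and 0.03 in monosomes. Copy A of these pairs thus made up a larger part of the mRNA than of any footprint library. RPS7 was the pair with opposite calls for global footprints over mRNA, RPS7A at -0.98 (SE 0.13) and RPS7B at 0.72 (SE 0.14). Of the other pairs, both copies were called higher in 16 and lower in 4, in 2 pairs a single copy passed, and in RPS9 neither did.

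RPS9, whose product helps set decoding accuracy, had the largest shift between fractions. Its B copy prevailed in mRNA (log2 ratios -2.80 and -2.69), in global footprints (-2.76 and -2.58) and in polysomes (-2.92 and -2.73), but less so in monosomes (-1.17 and -1.12). RPS9A (YPL081W, chromosome XVI, 404950 to 406044) had 864 and 818 CPM in monosomes, and polysomes 483 and 497 CPM (log2 ratio 0.78, SE 0.11, edgeR adjusted p = 2.77e-10). RPS9B (YBR189W, chromosome II, 604508 to 605508) had 1940 and 1783 CPM in monosomes, and polysomes 3661 and 3298 CPM (log2 ratio -0.90, SE 0.12, edgeR adjusted p = 4.25e-10). Both calls held in each alternative run. RPS14 also had opposite calls between fractions, with RPS14A at -0.40 and RPS14B at 0.30. Those calls were lost when single libraries were left out: RPS14A without polysome replicate 1 (edgeR adjusted p = 0.120) and RPS14B without monosome replicate 2 or polysome replicate 2. RPS14A also turned positive with library totals, at 0.058. Over the 24 pairs, both copies were higher in monosomes in 6 and lower in 7, in 4 a single copy passed, in 4 neither did, and in 3 the calls were opposite.

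RPS21 changed its leading copy, with A over B at 0.77 and 0.75 in mRNA but -0.59 and -0.57 in global footprints and -1.29 and -1.26 in monosomes. RPS0, which encodes the yeast relative of the mammalian laminin receptor protein, was at -0.91 and -0.87 in mRNA, -0.30 and -0.21 in polysomes and 0.35 and 0.44 in monosomes. RPS6 moved from -1.03 and -0.98 in mRNA to 0.09 and 0.13 in global footprints. The pairs nearest to balance in mRNA were RPS4, RPS18, RPS29 and RPS23, at means of 0.00, 0.01, -0.04 and -0.27. Of these, RPS4 was at 0.41 and 0.43 in global footprints and 1.04 and 0.95 in monosomes, whereas RPS18 was at 0.35 and 0.36 and at 0.39 and 0.45. RPS29 was at -0.65 and -0.56 in global footprints and RPS23 at -0.30 and -0.45, the latter overlapping its mRNA values of -0.20 and -0.34.

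**Figure D4:**
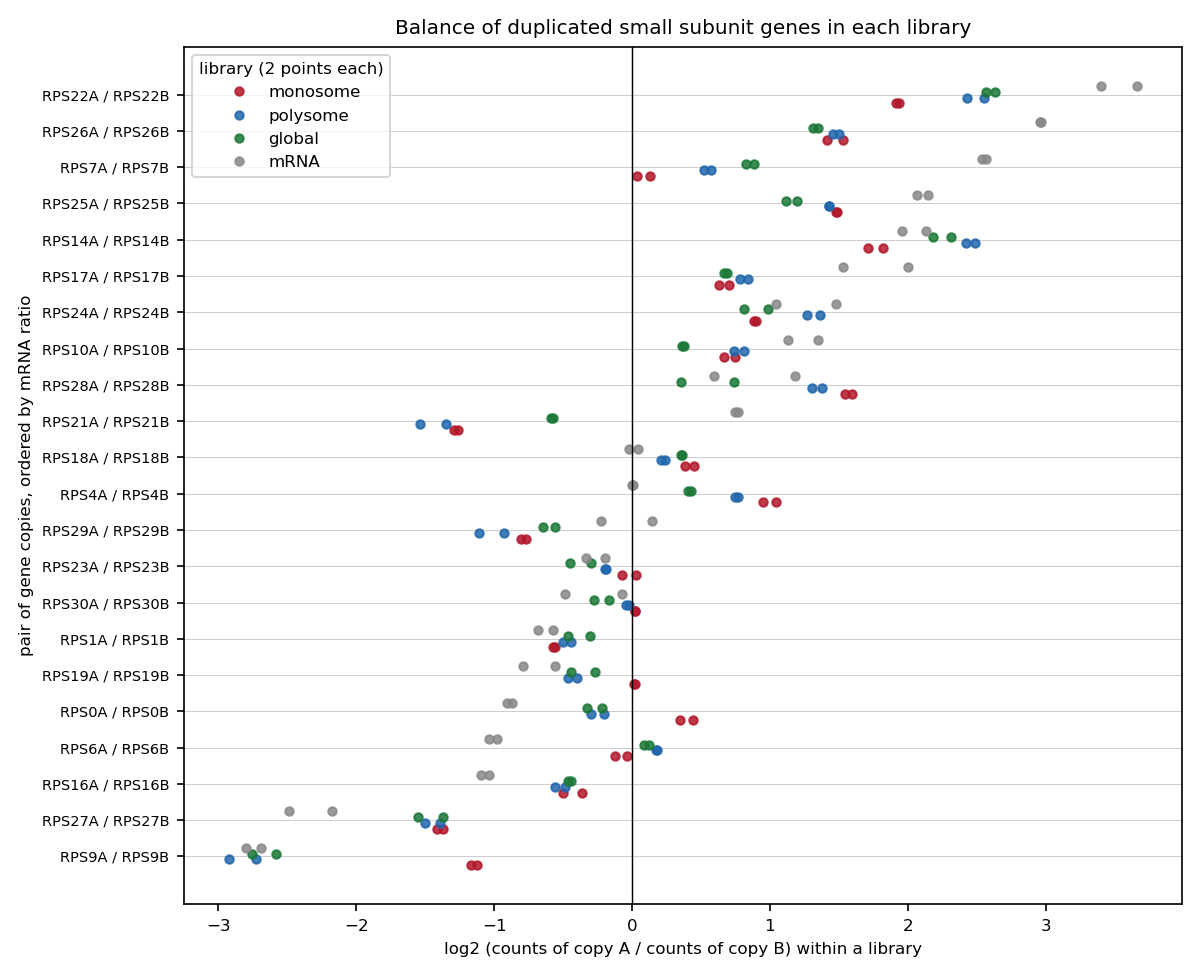
Log2 ratio of counts of copy A over copy B within each library for 22 pairs of duplicated small subunit genes, ordered by the mRNA ratio; each point is a library and each colour a group. The pair RPS9 has its monosome points at -1.17 and -1.12, apart from the other groups below -2.5, and RPS21 has mRNA points above 0 and all footprint points below.

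Set against global footprints, which both following comparisons share, monosomes and polysomes gave different members. For monosomes over global footprints, 24 of 57 were higher (42.1%, against 22.2% of all genes) and 9 lower (15.8%, against 24.3%), with a median of 0.18 beside 0.00 over all genes. RPS29B, at 3944 and 4290 CPM in monosomes and 1493 and 1316 CPM in global footprints, was highest (1.55, SE 0.13, edgeR adjusted p = 3.02e-19). RPS9A, at 864 and 818 CPM against 300 and 283 CPM, followed (1.53, SE 0.12). RPS6A (-1.06, SE 0.13) and RPS4B (-0.88, SE 0.12) were lowest, though fragments that may match both copies leave their levels uncertain. The 9 became 5 without monosome replicate 2 or without global replicate 1; RPS20, RPS31, RPS23B and RPS4A lost their calls in each case.

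For polysomes over global footprints, 42 of 57 were higher (73.7%, against 13.5% of all genes) and 2 lower (3.51%, against 10%), with a median of 0.51 beside -0.02. With library totals 21 were higher and 8 lower, beside 181 and 2002 of all 5336 genes tested, and the medians were 0.06 and -0.46. RPS26A was at 5205 and 5078 CPM in polysomes and 2375 and 1990 CPM in global footprints (1.23, SE 0.13, edgeR adjusted p = 7.18e-13). RPS14A was at 3909 and 3523 CPM against 1882 and 1542 CPM (1.12, SE 0.13). RPS21A, at 602 and 506 CPM against 862 and 770 CPM, was lower (-0.56, SE 0.12; edgeR adjusted p = 0.0669 without polysome replicate 2), as was RPS28B (-0.54, SE 0.12). RPS26A in monosomes, at 5827 and 5271 CPM, also exceeded its global level (1.34, SE 0.13), so its global footprints lay below those of both fractions.

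The large subunit proteins, 81 genes, were counted in the same way. In monosomes over polysomes 14 were higher and 35 lower (17.3% and 43.2%, against 36.6% and 33.5% of all genes; median -0.17), and in global footprints over mRNA 60 and 16 (74.1% and 19.8%, against 34.8% and 31.0%; median 0.90). In monosomes over global footprints 54 were higher and 7 lower (66.7% and 8.64%, against 22.2% and 24.3%; median 0.50), and in polysomes over global footprints 66 and 2 (81.5% and 2.47%, against 13.5% and 10%; median 0.68). The differences between the subunits were not tested.

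Genes that serve the small subunit were listed separately. Of 18 assembly factors, which process and export the precursor subunit, 14 were lower in monosomes than in polysomes and 4 did not pass (77.8% lower, against 33.5% of all genes; median -0.50). TSR2, the chaperone of Rps26, was at -1.24 and BUD23, an rRNA methyltransferase, at -1.17. In global footprints over mRNA 15 of the 18 were higher and 3 did not pass (83.3% higher, against 34.8% of all genes; median 1.89), led by TSR3 (3.69) and TSR2 (3.47). Of 7 enzymes that modify small subunit proteins, 5 were lower in monosomes (71.4%, against 33.5% of all genes) and 2 did not pass, with SFM1, which methylates Rps3, at -1.33 and TPA1, a hydroxylase of Rps23, at -1.30. In global footprints over mRNA SFM1 (1.58) and HEL2 (0.90), the ligase that marks Rps20 on stalled ribosomes, were higher and 5 did not pass, a share of 28.6% that is near the background of 34.8%. Of 7 tested regulators of ribosomal protein genes, 4 were lower in monosomes (57.1%, against 33.5% of all genes), among them RAP1 (-1.06) and HMO1 (-0.48), SFP1 was higher (0.40) and 2 did not pass. In global footprints over mRNA FHL1 (1.35) and ABF1 (1.09) were higher, HMO1 was lower (-0.40) and 4 did not pass; 28.6% higher and 14.3% lower stand beside 34.8% and 31.0% of all genes.

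In the authors' deposited table, 32 of the 57 genes had a negative and 14 a positive log2 fold change at an adjusted p under 0.05. The share of all genes passing in that table was not counted here, so these counts stand without a background. In the authors' deposited table ASC1 was at -1.47 and RPS29A at 1.18. The table does not name its comparison; across 5326 genes its values had r = 0.961 with the log2 ratios of monosomes over polysomes given here. For 52 of the 57 genes the authors' deposited table and the edgeR test made the same call.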

How the data were processed

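The values analysed are raw counts of reads per gene in 8 libraries, as the authors deposited them. The submitters' processing notes name TopHat, Bowtie, HTSeq and DESeq2 with the genome sacCer3 and no versions; the strand setting and the rule for reads with several matches are not given in the sources used here. According to the labels' protocols, gradient fractions holding monosomes or polysomes were pooled, treated with RNase I and purified on another sucrose gradient, global lysates were treated before their gradient, and rRNA was depleted. The authors' deposited log2 fold changes and adjusted p-values come from DESeq2, per the file headers, and were used only in the closing paragraph of the report.

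Differences in counts were tested by edgeR 4.0.16 under R 4.3.3 (quasi-likelihood F test, 1 fit of 8 libraries in 4 groups, TMM factors, filterByExpr with minimum count 10 and minimum total 15, Benjamini-Hochberg over 5336 genes, threshold 0.05). The SE is the absolute log2 ratio divided by the square root of F, a restatement of that test. The alternatives included DESeq2 1.42.0. Copy ratios used a pseudocount of 0.5 counts. The script was checked on simulated counts. Of 6692 identifiers, 6008 matched the R64 reference table, all 57 members among them; its spans include introns, so levels per kb (1000 nt) were limited to 20 genes taken from general knowledge of the annotation to have none. The libraries of a group were further apart than counting error alone gives (chi-square divided by its degrees of freedom 1.54 to 5.63).

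The members, lists and tests were chosen with earlier results of these data known. The rule allowed all 57 genes, with library values for the 4 largest changes each way between monosomes and polysomes and between global footprints and mRNA, the 2 largest in the other comparisons, the single-copy genes, the 4 shortest of known coding length and the 8 pairs most and least unequal in mRNA, and up to 2 genes each way per other list; other members given with library values were chosen after their values were seen. Sequences and promoter motifs were not analysed here. Of the members, 5 are not reported here by name, level or plot; they stay in the fits and in the counts and medians over all members, but not in the levels per kb. Figures used Python 3.11.15 and matplotlib 3.10.9.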

Additional observations from a re-analysis of the deposited data

How the results depend on the processing

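When library totals alone set the scale, small subunit counts became 30 higher and 19 lower for monosomes over polysomes (16 and 29 with TMM). Over all 5336 genes tested, 3030 were then higher and 867 lower. For global footprints over mRNA the counts were 48 and 6 (40 and 11), beside 2906 and 1028 of all genes. Monosomes over global footprints gave 27 and 11 (24 and 9), beside 1177 and 1258 of all genes. Polysomes over global footprints gave 21 and 8 (42 and 2), beside 181 and 2002 of all genes. Genes that turned direction on that scale and were called on at least 1 of the 2 scales included, for monosomes over polysomes, RPS0A (0.074), RPS7A (0.022), RPS13 (0.155), RPS14A (0.058), RPS16A (0.34), RPS16B (0.25), RPS17A (0.185), RPS17B (0.33), RPS22A (0.29) and RPS24A (0.118). For global footprints over mRNA they were RPS0A (0.195), RPS2 (0.061), RPS3 (0.55), RPS6A (0.31), RPS14A (0.184) and RPS22A (0.69). For polysomes over global footprints they were RPS3 (-0.112), RPS4B (-0.118), RPS6B (-0.33), RPS12 (-0.127), RPS17A (-0.020), RPS22B (-0.057), RPS23B (-0.093), RPS24A (-0.062), RPS25A (-0.052), RPS25B (-0.32), RPS29A (-0.33), RPS30A (-0.024) and RPS30B (-0.22). Totals carry the scaling shift by construction.

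No count moved by over 1.5 times with RLE size factors, TMM factors from other genes, either low-count filter, DESeq2, or fits of the groups compared alone. The stricter filter gave 21 higher and 23 lower for monosomes over polysomes. Leaving out single libraries gave 11 to 15 higher and 23 to 26 lower for monosomes over polysomes, 39 to 42 and 10 to 11 for global footprints over mRNA, 20 to 24 and 5 to 9 for monosomes over global footprints, and 32 to 39 and 1 to 2 for polysomes over global footprints; a lone remaining library was then assumed to vary like the other groups. Calls that held in the 11 settings other than library totals were 11 higher and 22 lower for monosomes over polysomes, 38 and 10 for global footprints over mRNA, 20 and 5 for monosomes over global footprints, and 31 and 1 for polysomes over global footprints. With the replicate number as a block the counts were 16 and 31, 41 and 12, 27 and 11, and 48 and 2 in that order. Deviations of same-numbered libraries had correlations of -0.00844 to 0.0581 between groups. Counting error in low-count genes can hide a shared source, so these values cannot tell whether same-numbered libraries share a culture. The mRNA depth of 22 to 55 counts limits the ratios of RPS29 and RPS30.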
